A study of Homo sapiens with 6 samples.

Results

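Transcripts of 10 genes of the ATF4-CHOP stress pathway were followed in 22Rv1 cells, an epithelial line from a human prostate carcinoma, before and after 6 weeks of daily DNA damage. The genes are the transcription factors ATF4, DDIT3 (the gene for CHOP), ATF3, ATF5, CEBPB and CEBPG and the feedback and effector genes TRIB3, CHAC1, SESN2 and DDIT4. They were selected by symbol from the 29804 symbols of the count table, on the strength of earlier results from these same libraries, so all comparisons of the 10 genes between groups are descriptions and support nothing by themselves. All 10 passed the expression filter that left 14672 genes. WT cells were untreated and were harvested at week 0. AM cells (age matched) were carried in culture without drug for 6 weeks, and 6WP cells were carried in parallel for 6 weeks while being treated with 1 µg/ml of phleomycin, a radiomimetic that breaks DNA, for 1 hour on each week day. All 3 groups are the same line in the same medium, RPMI with fetal bovine serum, and each holds 2 libraries that the labels call biological replicates.

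ATF4 is the effector of the integrated stress response. Kinases that sense amino acid shortage, unfolded protein in the endoplasmic reticulum, double-stranded RNA or haem deficiency phosphorylate the initiation factor eIF2, bulk translation falls, and the ATF4 open reading frame is translated more because of short upstream reading frames. ATF4 protein dimerises with C/EBP proteins and binds composite C/EBP-ATF elements in genes for amino acid synthesis and transport, and in the genes of further factors such as CHOP, ATF3 and ATF5. Several of its targets act back on the pathway. RNA counts report transcript abundance and do not measure ATF4 translation or eIF2 phosphorylation.

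Library totals lay between 21222201 and 35311945 counts, the smallest in WT replicate 2 and the largest in AM replicate 2. A floor of 3 counts equalled at most 0.138 CPM (counts scaled to the library size with TMM factors), and the lowest count of any of the 10 genes was 128, for CHAC1. Floors cover counting error only. The 6WP libraries differed more from each other than those of the other groups. The median absolute difference between replicates over 12037 genes was 0.24 log2 units in 6WP, against 0.10 in WT and 0.11 in AM cells. All 6 prostate luminal markers passed the expression filter and summed to between 1367 and 1880 CPM. The fibroblast and leukocyte marker lists summed to at most 3.66 CPM and the endothelial list to at most 0.138 CPM, with PTPRC, CD3E and CDH5 at 0 in every library. In bulk RNA, a change in the share of cells that express a gene and a change in RNA per cell cannot be told apart. An exact permutation of 2 libraries against 2 cannot give a two-sided p below 0.333, so calls rest on edgeR's quasi-likelihood test, with Benjamini-Hochberg adjustment over the 14672 genes and a threshold of 0.05. The fit takes the same spread for a gene in all 3 groups. As the 6WP libraries differed more, intervals tend to be too wide for AM against WT and too narrow for comparisons with 6WP.

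ATF4, on chromosome 22 of GRCh38 from 39519695 to 39522683, was the gene at the head of the pathway. It measured 425 and 422 CPM in the WT libraries, 497 and 579 CPM in the AM libraries and 740 and 731 CPM in the 6WP libraries. The groups did not overlap, and each step from WT through AM to 6WP was upward. The 6WP level was 1.74 times the WT level, or 0.80 ± 0.11 on the log2 scale (standard error; adjusted p = 0.0155). Over AM cells it stood 0.45 ± 0.11 higher on this scale (adjusted p = 0.0273). AM cells stood 0.34 above WT cells, with a 95% interval from 0.08 to 0.60 and an adjusted p of 0.0703, so that step did not pass the threshold. These calls depend on the spread shared by the 3 groups. With only the 2 compared groups in the fit, the adjusted p of ATF4 was 0.0033 in AM against WT and 0.0573 in 6WP against WT.

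DDIT3, on chromosome 12 from 57516588 to 57521737, encodes CHOP, a C/EBP family factor that ATF4 induces and that is associated with cell death under prolonged stress. Its levels were 35.1 and 33.9 CPM in WT, 71.2 and 80.9 CPM in AM and 144 and 96.7 CPM in 6WP cells. The 3 groups were separate, and the 6WP libraries were further apart than those of the other groups. DDIT3 rose 3.49-fold from WT to 6WP cells (log2 fold change 1.80, standard error 0.19, adjusted p = 0.00528). It rose already in AM cells, by 1.14 on the log2 scale over WT (adjusted p = 0.00875), and 6WP stood a further 0.66 above AM (adjusted p = 0.0367), or 0.34 without 6WP replicate 1. Of the DDIT3 exon sequence, 27.2% also lies in exons of MARS1 (MARS in the count table) on the opposite strand and 8.03% in another protein-coding gene on the same strand. The library kit keeps strand, but the strand setting of the counting is not given in the sources used here. MARS measured 216 and 202 CPM in WT and 330 and 238 CPM in 6WP cells, a log2 fold change of 0.44 (adjusted p = 0.152), and the part of the shared exons in the DDIT3 counts was not tested.

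ATF3 and ATF5 followed other courses than ATF4 and DDIT3. ATF3, on chromosome 1 from 212565334 to 212620777, is a stress-induced factor of the ATF/CREB family that can repress transcription. It measured 41.6 and 64.0 CPM in WT, 51.0 and 53.7 CPM in AM and 122 and 79.6 CPM in 6WP cells. Both AM values fell between the WT values, while both 6WP values were above all others. Against AM cells, ATF3 rose in 6WP cells by 0.94 ± 0.24 on the log2 scale (adjusted p = 0.0291), or by 0.60 without 6WP replicate 1. Against WT cells the difference of 0.93 had an interval from 0.38 to 1.49 and missed the threshold (adjusted p = 0.0776), beside the wide gap between the WT libraries. The AM to WT difference was -0.01, with an interval from -0.57 to 0.54. ATF5, on chromosome 19 from 49928702 to 49933935, encodes a factor that is translated under stress in a way like ATF4 and takes part in the mitochondrial stress response. It measured 109 and 122 CPM in WT, 192.5 and 161 CPM in AM and 157 and 201 CPM in 6WP cells. The AM and 6WP libraries overlapped, and both groups were above WT. ATF5 rose in AM cells over WT (log2 fold change 0.61, standard error 0.15, adjusted p = 0.0315). Its difference between 6WP and AM cells was 0.02, with an interval from -0.33 to 0.36, and that between 6WP and WT cells was 0.63 (adjusted p = 0.0697). Exons of NUP62 on the opposite strand cover 19.5% of the ATF5 exon sequence, and NUP62 measured between 91.5 and 125 CPM in the 6 libraries.

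CEBPB and CEBPG encode C/EBP proteins that pair with ATF4, and their transcripts were above both control groups in 6WP cells. CEBPB, a single-exon gene on chromosome 20 from 50190830 to 50192668, measured 12.4 and 14.0 CPM in WT, 17.6 and 21.6 CPM in AM and 54.5 and 35.4 CPM in 6WP cells. The 6WP libraries stood apart from the other 4, and the step from WT to AM was small beside it. CEBPB rose 3.42-fold over WT (log2 fold change 1.77, standard error 0.22, adjusted p = 0.0089) and by 1.19 on the log2 scale over AM (adjusted p = 0.00995), while the AM to WT difference of 0.58 had an adjusted p of 0.102 and an interval from 0.07 to 1.09. An antisense transcript shares 12.6% of its exon sequence. CEBPG, on chromosome 19 from 33373685 to 33382686, is the partner without a transactivation domain of its own. It measured 138 and 125 CPM in WT, 168 and 188 CPM in AM and 289 and 294 CPM in 6WP cells. Both its 6WP libraries lay close together, as those of ATF4 did, and all 3 groups were separate. CEBPG rose over WT by 1.15 ± 0.11 on the log2 scale (adjusted p = 0.00493) and over AM by 0.71 (adjusted p = 0.00658), and AM cells were 0.44 above WT (adjusted p = 0.0318).

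**Figure D1:**
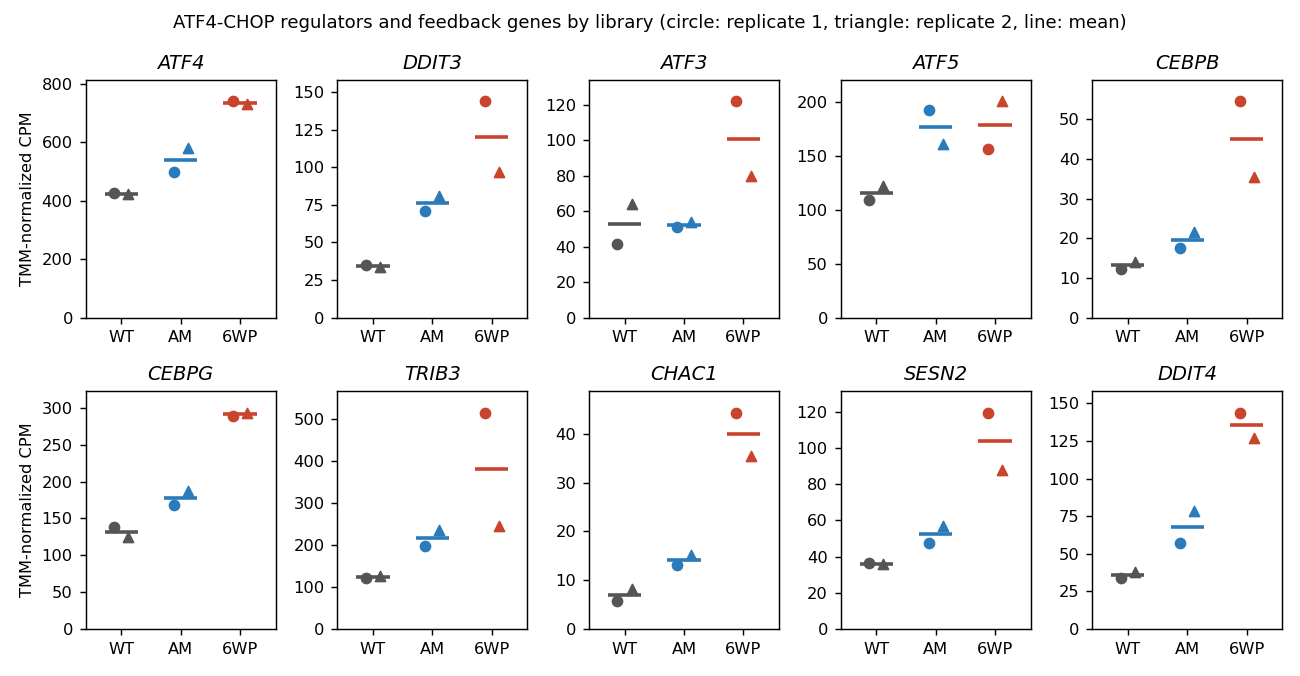
TMM-normalized CPM (y axis, starting at 0 in each panel) of the 10 genes in WT, AM and 6WP cells; circles are replicate 1, triangles replicate 2 and lines the mean of the 2 libraries. In 9 panels both 6WP libraries lie above both AM libraries, ATF5 being the exception, and in 9 both AM libraries lie above both WT libraries, ATF3 being the exception.

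Of the feedback genes, TRIB3 encodes a pseudokinase that binds ATF4 and CHOP and restrains them. It lies on chromosome 20 from 362835 to 397559 and measured 122 and 125 CPM in WT, 198 and 235 CPM in AM and 515 and 246 CPM in 6WP cells. The second 6WP library was barely above the higher AM library, and the first was 2.10 times the second. TRIB3 rose 3.07-fold over WT (log2 fold change 1.62, standard error 0.29, adjusted p = 0.0329), and the fold was 1.96 without 6WP replicate 1 and 4.09 without 6WP replicate 2. Its difference from AM, 0.81, had an interval from 0.15 to 1.48 and missed the threshold (adjusted p = 0.08). Without 6WP replicate 1 that difference was 0.18, and without 6WP replicate 2 it was 1.22. CHAC1, on chromosome 15 from 40952962 to 40956512, encodes an enzyme that degrades glutathione and is a target of ATF4, ATF3 and CEBPB. It had 5.72 and 8.13 CPM in WT, 13.1 and 15.1 CPM in AM and 44.4 and 35.5 CPM in 6WP cells. The 3 groups did not overlap, and CHAC1 had the largest difference between 6WP and WT cells of the 10 genes, 5.77-fold (log2 fold change 2.53, standard error 0.21, adjusted p = 0.00341). It rose in AM cells over WT by 1.03 (adjusted p = 0.0158) and in 6WP cells 2.82-fold over AM (adjusted p = 0.00397).

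SESN2 and DDIT4 encode inhibitors of the growth kinase complex mTORC1, through which the pathway lowers anabolic signalling. SESN2 (sestrin 2), on chromosome 1 from 28259518 to 28282491, is also induced by p53. It measured 36.3 and 35.6 CPM in WT, 47.6 and 57.1 CPM in AM and 120 and 87.8 CPM in 6WP cells. All groups were separate, and SESN2 rose by 1.53 ± 0.17 on the log2 scale over WT (adjusted p = 0.00654) and 0.98 over AM (adjusted p = 0.00818). AM cells were 0.54 above WT cells with an adjusted p of 0.0583 (interval 0.16 to 0.93). DDIT4 (REDD1), on chromosome 10 from 72273919 to 72276036, responds to DNA damage and low oxygen as well as to ATF4. It measured 33.6 and 38.0 CPM in WT, 57.2 and 78.5 CPM in AM and 144 and 127 CPM in 6WP cells. The groups were again separate in this order. DDIT4 rose 3.78-fold over WT (log2 fold change 1.92, standard error 0.17, adjusted p = 0.00448), by 0.99 over AM (adjusted p = 0.00763) and, from WT to AM, by 0.92 (adjusted p = 0.0118).

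**Figure D2:**
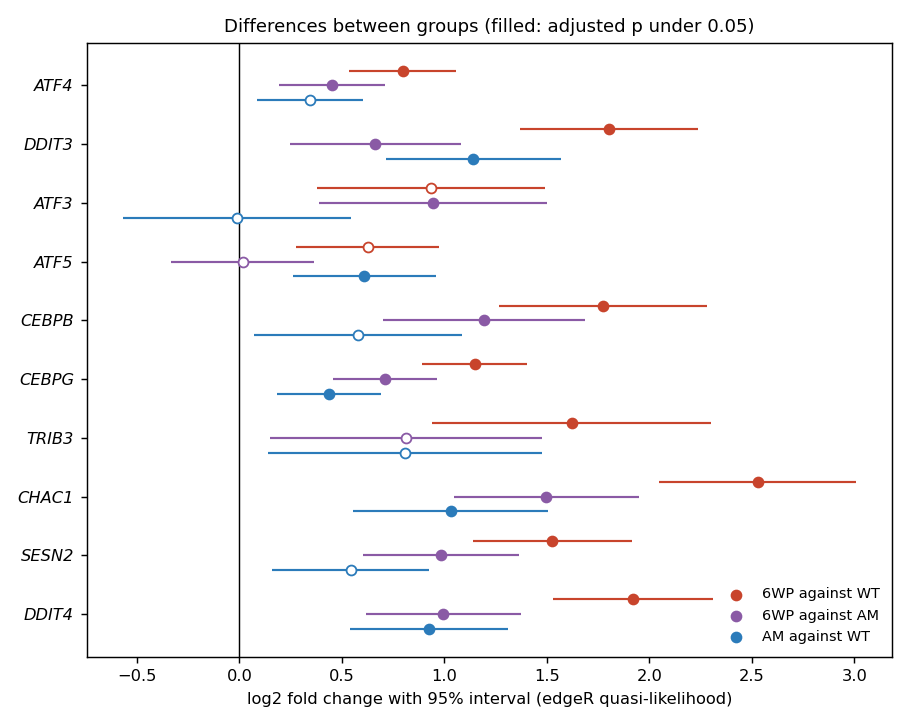
Log2 fold changes (x axis) of the 10 genes in the 3 comparisons, with 95% intervals from the quasi-likelihood fit; filled points have an adjusted p under 0.05. CHAC1 reaches 2.53 in 6WP against WT, while the intervals of ATF3 in AM against WT and of ATF5 in 6WP against AM include 0.

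Promoters were searched for the composite C/EBP-ATF element because it is the sequence through which ATF4 dimers are known to act. The 8-base motif TGATGCAA was looked for on both strands, from 500 bases before to 50 bases after the Ensembl canonical start in GENCODE v44. It was found in 3 of the 10 genes, which are DDIT3, ATF3 and CHAC1, and in 221 of 20031 protein-coding windows (1.10%). The looser form TGATGNAA, which includes every match of the first, was found in 4 of the 10, with SESN2 added, and in 5.03% of all windows. The sites are shown with flanks of up to 30 bases, cut at the transcription start, in the direction of the gene, with the matched bases in capitals. Except for the ATF3 site nearest the start, they read as the reverse complement of the motif.
DDIT3, 306 bases upstream, chr12:57520783-57520850, minus strand: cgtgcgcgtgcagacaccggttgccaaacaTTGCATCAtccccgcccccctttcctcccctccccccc
ATF3, 203 bases upstream, chr1:212608528-212608595, plus strand: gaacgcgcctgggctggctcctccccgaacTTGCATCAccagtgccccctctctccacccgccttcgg
ATF3, 21 bases upstream, chr1:212608710-212608760, plus strand: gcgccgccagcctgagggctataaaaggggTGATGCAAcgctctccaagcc
CHAC1, 209 bases upstream, chr15:40953232-40953299, plus strand: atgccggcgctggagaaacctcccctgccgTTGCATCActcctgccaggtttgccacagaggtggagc
SESN2, 296 bases upstream, looser form, chr1:28259192-28259259, plus strand: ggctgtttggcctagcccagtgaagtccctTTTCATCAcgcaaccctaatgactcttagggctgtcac
DDIT3 and CHAC1, which carry the stricter form, rose in AM as well as 6WP cells, whereas ATF3, which carries it 2 times, had a level in AM cells within the WT range. The other 6 genes had neither form in this window, which says nothing of sites elsewhere. Of these, CEBPG and DDIT4 also rose over WT in both AM and 6WP cells. A relation between the motif and the levels was not tested. On the 3 lists of ATF4 targets given below, 7 of 32 windows held the stricter form. The 10 genes and these lists were chosen as genes of the ATF4 pathway, so nothing is read from their shares with the motif. The cAMP response element TGACGTCA was found in 0 of the 10 windows and in 3.18% of all. A match describes letters only, and no binding was measured in these libraries.

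Levels of different genes were compared per kilobase of exon. In WT cells, ATF4 had the highest level, 162 ± 0.68 CPM per kb (SD, n = 2), followed by ATF5, TRIB3, CEBPG, DDIT3, DDIT4, ATF3, SESN2, CEBPB and CHAC1, the last at 3.38 ± 0.83 CPM per kb. Neighbours whose library ranges overlapped in this order were ATF5 with TRIB3, DDIT4 with ATF3 and ATF3 with SESN2. In 6WP cells ATF4 remained first (281 ± 2.25 CPM per kb) and CHAC1 last (19.5 ± 3.06), but the order between them changed. TRIB3 came next at 116 ± 57.9, then DDIT3 at 92.1 ± 25.6, CEBPG, DDIT4 and ATF5, the last at 61.8 ± 10.7 CPM per kb. TRIB3 and DDIT3 overlapped in their 6WP libraries, as did DDIT4 with ATF5 and each neighbouring pair from SESN2 through ATF3 and CEBPB to CHAC1.

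Counted together, 8 of the 10 genes passed the test upward and 0 downward in the comparison of 6WP with WT, where 1.63% of all tested genes were called higher. Both 6WP libraries exceeded both WT libraries for all 10, against 25.5% of tested genes. In 6WP against AM cells 8 were called higher and 0 lower (11.7% of tested genes were called higher), and 9 had both libraries above both (33.8% of tested genes). In AM against WT cells 5 were called higher and 0 lower (7.74% of tested genes were called higher), and 9 did not overlap upward (36.9%). The members were chosen with these contrasts known, and nothing is read from these shares. At an unadjusted p under 0.05 the numbers were 10, 9 and 9, and DESeq2 called 10, 9 and 8. In the same order, the 10 genes had median log2 fold changes of 1.57, 0.88 and 0.59, beside 0.01, 0.05 and 0.00 over all tested genes. The comparisons share their groups with each other. Without WT replicate 1 or without WT replicate 2, edgeR called 0 of the 10 in 6WP against WT and 0 in AM against WT, while all 10 of the former kept an unadjusted p under 0.05, with medians of 1.57 in both fits. In 6WP against AM it called 0 without AM replicate 1 and 1 without AM replicate 2. The calls of ATF4 and TRIB3 over WT were also lost without either AM library (adjusted p of 0.0533 and 0.0535 for ATF4 and of 0.0945 and 0.0954 for TRIB3), and those of ATF4 and DDIT3 over AM without either WT library (adjusted p of 0.0865 and 0.0892 for ATF4 and of 0.0888 and 0.0905 for DDIT3).

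The AM group placed the 10 genes at different points between WT and 6WP cells. As a share of the log2 difference between 6WP and WT, the AM to WT step was 97.4% for ATF5 and 63.3% for DDIT3. It lay between 32.7% and 49.9% for CEBPB, SESN2, CEBPG, CHAC1, ATF4, DDIT4 and TRIB3, and was -1.25% for ATF3. Single libraries moved these shares. Without 6WP replicate 1 that of TRIB3 was 81.7% and without 6WP replicate 2 it was 40.0%, that of ATF5 reached 150% without 6WP replicate 2, and that of ATF4 fell to 27.7% without AM replicate 2. The share of ATF3 was -43.0% without WT replicate 1 and 27.6% without WT replicate 2. The shares are ratios of fitted values from 2 libraries a group, and the differences between genes were not tested.

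The 2 libraries of 6WP cells separated some of these genes from others. ATF4 and CEBPG differed between them by 0.02 log2 units in either direction. TRIB3 was 2.10 times as high in replicate 1 as in replicate 2, CEBPB 1.54 times, ATF3 1.53 times, DDIT3 1.49 times and SESN2 1.36 times, while ATF5 was lower in replicate 1 at 0.78 times. With CHAC1 (1.25 times) and DDIT4 (1.13 times), 7 of the 10 were higher in replicate 1 by more than the ATF4 transcript, which was 1.01 times as high. Within AM cells, replicate 2 had the higher value for 9 genes, ATF5 again being the exception. ATF4 (0.22 log2 units), CEBPG (0.16) and DDIT4 (0.46) differed more between the AM libraries than between the 6WP libraries. In WT cells only ATF3 and CHAC1 differed by more than 0.4 log2 units, both higher in replicate 2. The median absolute difference over the 10 genes was 0.40 in 6WP, 0.23 in AM and 0.15 in WT cells, in each group above the median of all genes given earlier.

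**Figure D3:**
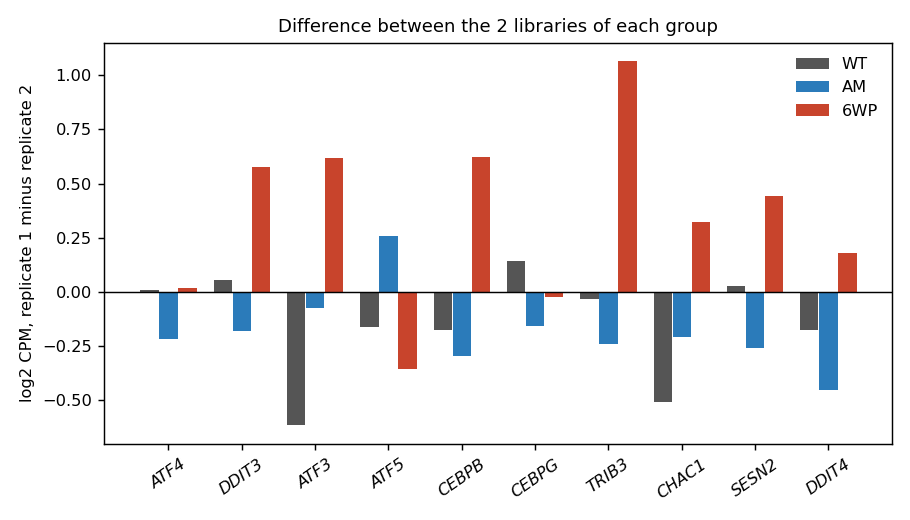
Log2 CPM of replicate 1 minus replicate 2 (y axis) for each of the 10 genes in WT, AM and 6WP cells, 1 bar per group. TRIB3 reaches 1.07 in 6WP cells while ATF4 and CEBPG are near 0.02 in size there, and ATF5 is the 1 gene higher in replicate 1 of AM cells.

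Across the 6 libraries, the 10 genes were described by the correlation of log2 CPM of each with the mean of the other 9. Pearson's r was 0.99 for CHAC1, SESN2, DDIT4 and CEBPB, 0.98 for ATF4, 0.96 for CEBPG and DDIT3, 0.94 for TRIB3, 0.83 for ATF3 and 0.65 for ATF5. Among the 45 pairs, CEBPB with SESN2 (0.996), ATF4 with DDIT4 (0.995) and ATF4 with CEBPG (0.991) were the highest and ATF3 with ATF5 (0.34) the lowest. The points are 6 libraries in 3 groups that share the difference between groups, so these values are descriptions without a test.

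Of 7 tested genes of the eIF2 arm, edgeR called 0 in 6WP against WT, where 3% of all tested genes were called in either direction. By edgeR 3 had an unadjusted p under 0.05, and DESeq2 called 3. PPP1R15A (GADD34), the phosphatase subunit that reverses eIF2 phosphorylation, measured 18.4 and 21.1 CPM in WT and 46.3 and 27.9 CPM in 6WP cells (log2 fold change 0.91, adjusted p = 0.0766). Against AM cells, at 19.8 and 23.3 CPM, it rose by 0.78 on the log2 scale (adjusted p = 0.0457). EIF2AK3 (PERK), the kinase that senses endoplasmic reticulum stress, measured 24.0 and 24.4 CPM in WT, 30.6 and 31.4 CPM in AM and 16.0 and 18.2 CPM in 6WP cells. It fell between AM and 6WP cells by 0.86 on the log2 scale (adjusted p = 0.00569), while the difference from WT was -0.50 (adjusted p = 0.076). EIF2AK2 (PKR), the kinase for double-stranded RNA, went from 22.4 and 26.5 CPM in WT to 9.55 and 13.5 CPM in 6WP cells, a log2 fold change of -1.09 with an adjusted p of 0.0595.

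Known targets of ATF4 outside the 10 genes were grouped in 3 lists, compiled from general knowledge with earlier results of these data known. Of 12 enzymes of amino acid and one-carbon metabolism, 10 rose and 0 fell in 6WP against WT, with a median log2 fold change of 0.94. PCK2, mitochondrial phosphoenolpyruvate carboxykinase, went from 125 and 123 CPM to 463 and 406 CPM (log2 fold change 1.81, adjusted p = 0.00338). GPT2, an alanine aminotransferase, rose by 1.16 (adjusted p = 0.00448) and ASNS, asparagine synthetase, by 1.17 (adjusted p = 0.00528). The 2 enzymes without a call were ALDH18A1 and CTH. Of 8 amino acid transporters 5 rose and 0 fell. SLC6A9, a glycine transporter, rose by 1.67 (adjusted p = 0.00338), SLC3A2, the heavy chain of several exchangers, by 1.21 (adjusted p = 0.00448), and its light chain SLC7A5 by 1.12 (adjusted p = 0.00528). Of 10 further stress genes tested 7 rose and 0 fell, among them STC2, a secreted glycoprotein, by 1.82 (adjusted p = 0.00493), EIF4EBP1, a repressor of translation, by 1.43 (adjusted p = 0.00671), and the angiogenic factor VEGFA by 1.16 (adjusted p = 0.00691). FGF21 and INHBE, also on the list of further stress genes, did not pass the expression filter. As the lists were compiled with results known, nothing is read from their counts. Over the 3 lists together, 22 of 30 tested genes rose in 6WP against WT, where 1.63% of all tested genes were called higher. In 6WP against AM 21 rose (11.7% of all tested genes), and in AM against WT 13 rose (7.74%) while 1 fell. The 1 that fell was KLHL24, named after its values were seen, with 105 and 102 CPM in WT and 64.9 and 59.2 CPM in AM cells.

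Known targets of CHOP and relatives of the 10 genes were counted in the same way. Of 6 CHOP targets tested, edgeR called 0 in 6WP against WT, with 4 at an unadjusted p under 0.05 and 1 called by DESeq2, beside the 3% of all tested genes, so that so short a list shows nothing by this count. In 6WP against AM 2 rose and 1 fell, where 21.3% of all tested genes were called in either direction. The 2 were TNFRSF10B and PPP1R15A, and PPP1R15A was counted in the eIF2 arm as well. TNFRSF10B, the death receptor DR5, measured 88.9 and 85.5 CPM in WT and 120 and 113 CPM in 6WP cells (log2 fold change 0.42, adjusted p = 0.0873), and rose over AM cells by 0.64 (adjusted p = 0.00983). ERO1L, an oxidase of the endoplasmic reticulum, was 0.47 below WT (adjusted p = 0.109) and fell by 0.74 against AM (adjusted p = 0.0117). Of 14 other bZIP factors tested, 1 rose and 0 fell in 6WP against WT, where 1.63% of all tested genes were called higher. In 6WP against AM 4 rose and 0 fell (11.7% of all tested genes were called higher). In AM against WT 0 rose and 2 fell (17.7% of all tested genes were called in either direction). The 1 that rose over WT was JDP2, a repressor related to ATF3, at 11.8 and 12.4 CPM in WT, 9.73 and 11.2 CPM in AM and 28.7 and 34.0 CPM in 6WP cells (log2 fold change 1.38, adjusted p = 0.00654). CEBPD and CEBPA, the closest other C/EBP genes, were 0.70 and 0.44 above WT with adjusted p of 0.105 and 0.224. Over AM cells they were 0.82 and 0.48 higher, with adjusted p of 0.0278 and 0.106. Of 6 paralogs (SESN1, SESN3, DDIT4L, TRIB1, TRIB2 and CHAC2) edgeR called 0 in 6WP against WT, with 2 at an unadjusted p under 0.05 and 0 called by DESeq2. Beside the 3% of all tested genes, this count too shows nothing for so short a list. TRIB2, the one with the smallest p, had 2.05 and 1.24 CPM in WT, 0.861 and 0.530 CPM in AM and 0.687 and 0.564 CPM in 6WP cells (log2 fold change of 6WP against WT -1.39, adjusted p = 0.102), a direction opposite to that of TRIB3. SESN3 measured 85.0 and 85.0 CPM in WT, 61.5 and 54.8 CPM in AM and 126 and 97.9 CPM in 6WP cells, so that it fell from WT to AM by 0.55 on the log2 scale (adjusted p = 0.0354) and rose from AM to 6WP by 0.95 (adjusted p = 0.00606).

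In the arms of the unfolded protein response that run through ATF6 and through XBP1, listed together, several genes were lower in 6WP cells. Of the 12 tested genes of this list, ATF6 and XBP1 among them, 0 rose, 5 fell and 7 were not called in 6WP against WT. In 6WP against AM 1 rose and 11 fell, and in AM against WT 11 rose and 0 fell. Of all tested genes, 3%, 21.3% and 17.7% were called in either direction in these comparisons. The 1 that rose over AM was ATF6 (log2 fold change 0.59, adjusted p = 0.0092). ATF6 was also 0.43 above WT (adjusted p = 0.0682), and XBP1 was at -0.07 against WT (adjusted p = 0.742). Both were named after their values were seen. The chaperone HSPA5 (BiP) had 1545 and 1534 CPM in WT, 2705 and 2874 CPM in AM and 444 and 512 CPM in 6WP cells. PDIA4, a disulfide isomerase, and HSP90B1, another chaperone, fell against WT by 1.47 and 1.27 on the log2 scale (adjusted p = 0.00338 and 0.00899). DDIT3, CEBPG, CHAC1 and DDIT4 were called above WT both in AM and in 6WP cells. HSPA5, PDIA4 and HSP90B1 were above WT in AM cells and below WT in 6WP cells. A relation between these patterns was not tested.

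**Figure D4:**
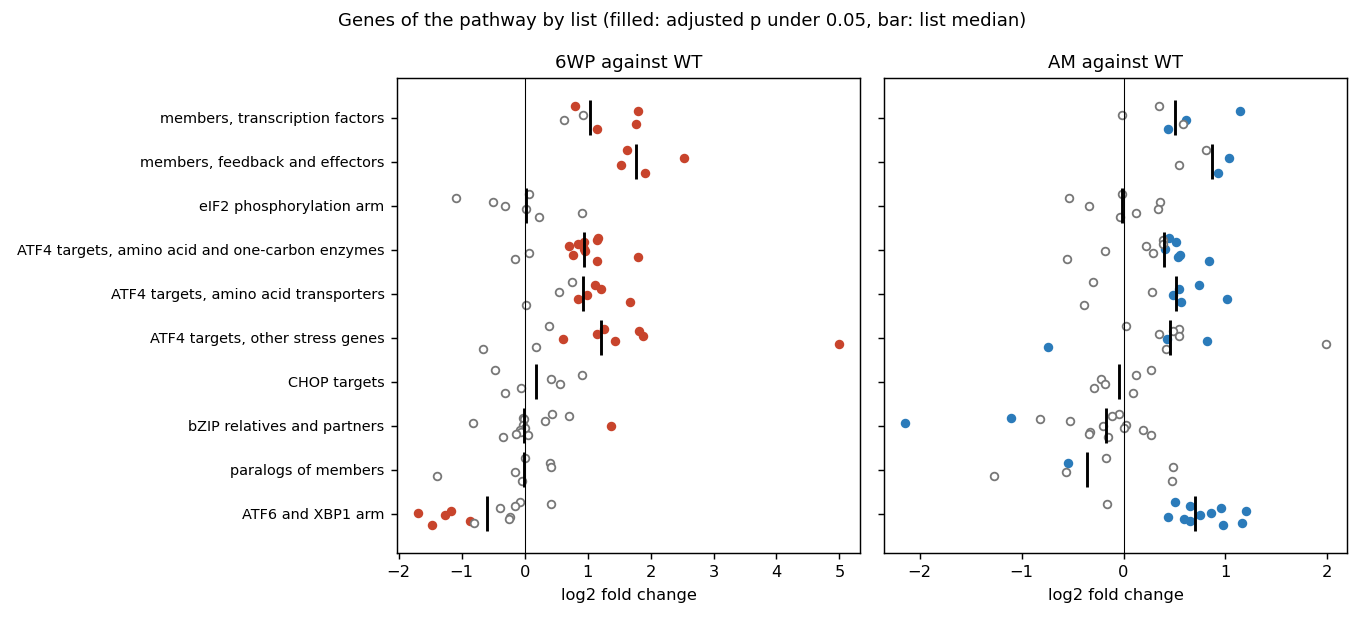
Log2 fold changes (x axis) of single genes by list, for 6WP against WT (left) and AM against WT (right); filled points have an adjusted p under 0.05 and vertical bars are list medians. The medians of the 3 ATF4 target lists and of both member lists are above 0 in both panels, at 0.92 to 1.77 on the left, though single genes lie below 0, such as CTH in both panels and ATF3 on the right, while the ATF6 and XBP1 arm has a median of -0.59 on the left and 0.70 on the right.

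The genes whose pattern was most like the mean of the 10 genes were taken from 2435 tested genes with mean log2 CPM of at least 1 and a range of at least 1 on the log2 scale over the 6 libraries. The 10 closest by Pearson's r were SLC3A2 (0.995), NUPR1 (0.991), LOC100630918, RAB3IL1, ELAC1, PHGDH, VMAC, PSPH, VEGFA and IFRD1 (0.986). Of these, 5 (SLC3A2, NUPR1, PHGDH, PSPH and VEGFA) stood on the ATF4 target lists. NUPR1, a small stress-induced chromatin protein, measured 115 and 115 CPM in WT, 157 and 177 CPM in AM and 324 and 227 CPM in 6WP cells. LOC100630918 and VMAC had no more than 4.23 CPM in any library and adjusted p of 0.0575 and 0.11 in 6WP against WT. The most opposite were NEDD4L (-0.98), ACER2, TMOD2, LNPEP and ZNF813 (-0.94). NEDD4L, a ubiquitin ligase of membrane transporters, measured 165 and 164 CPM in WT, 119 and 117 CPM in AM and 67.8 and 69.8 CPM in 6WP cells. With 6 libraries and this many candidates, values of this size are a ranking and not a test.

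**Figure D5:**
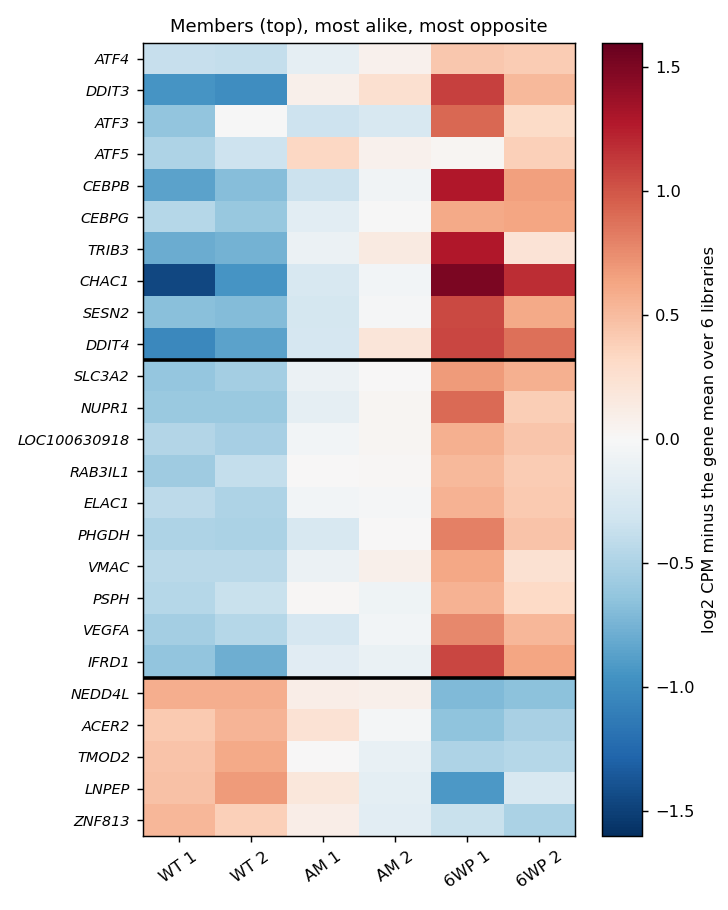
Log2 CPM of each gene minus its mean over the 6 libraries (colour scale) in WT, AM and 6WP cells, with the 10 members on top, the 10 most alike genes below and the 5 most opposite at the bottom. CHAC1 shows the widest range from WT to 6WP, ATF5 is already high in AM replicate 1, and both AM libraries of ATF3 lie between its WT libraries.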

How the data were processed

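Total RNA from 22Rv1 cells (WT, AM and 6WP, 2 libraries each) was sequenced with a stranded kit as 100 bp single end reads. According to the methods and the submitters' processing notes, the authors used STAR 2.5.3a, StringTie 1.3.3, featureCounts 1.5.3 and edgeR 3.22.3 in R 3.5.0 on hg38, with TMM normalization. The deposited table holds the raw counts of each gene symbol, not normalized. The gene annotation and the strand setting are not given in the sources used here.

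From these counts, edgeR 4.0.16 (filterByExpr with 3 groups, TMM, glmQLFit and glmQLFTest on all 6 libraries, no covariates) in R 4.3.3 tested 3 comparisons, two-sided, with Benjamini-Hochberg adjustment over 14672 genes. The standard error is the log2 fold change over the square root of F, and intervals are 95%. Precision follows the counts given in the report and the common dispersion of 0.0173. The script was tested on simulated data. These had the same spread in all 3 groups, so the wider spread of the 6WP libraries was not covered. Likeness used log2 CPM with a prior count of 2.

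The members and lists were chosen with earlier results of these data known. Named are all 10 members, the 3 genes of each list with the smallest p in 6WP against WT (any gene of the eIF2, CHOP target and paralog lists), and the 10 most alike and 5 most opposite genes. Alternatives were 3 other scalings, 2 other filters, DESeq2 1.42.0, a fit to the compared groups only, a replicate block and leaving out each library. Positions, exon lengths and overlaps come from GENCODE v44 on GRCh38. A library copy was not found, since replicates differed beyond sampling noise (chi-square per degree of freedom of at least 5.83). No sequence came from the libraries.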

Additional observations from a re-analysis of the deposited data

How the results depend on the processing

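The number of the 10 genes called was 8 in 6WP against WT, 8 in 6WP against AM and 5 in AM against WT. In AM against WT it was 3 with upper quartile normalization, 8 with the DESeq2 Wald test and 9 with only the 2 groups compared, a setting that gave 6 in 6WP against WT (ATF4 and TRIB3 lost, adjusted p = 0.0573 and 0.0966) and 6 in 6WP against AM (ATF4 and DDIT3 lost, adjusted p = 0.0852 and 0.0886). Leaving out a library gave 0 to 10 in 6WP against WT, 0 to 9 in 6WP against AM and 0 to 9 in AM against WT; the zeros leave 1 library in a compared group, which is then assumed to vary like the others, and at an unadjusted p under 0.05 the fit without WT replicate 1 had 10 in 6WP against WT and 5 in AM against WT, and that without AM replicate 1 had 6 in 6WP against AM. Over all tested genes the number called (440, 3131 and 2593) ranged from 0 to 3870, from 116 to 6807 and from 67 to 6654. Of the 3 ATF4 target lists, 22, 21 and 14 genes were called, with ranges of 0 to 26, 3 to 26 and 0 to 27. Same-numbered libraries deviated together with r of 0.04 (WT and AM), 0.09 (WT and 6WP) and -0.02 (AM and 6WP). Values this low show little shared deviation by number, but cannot tell whether same-numbered cultures were handled together. With a replicate block 8, 8 and 5 of the 10 genes were called. All 10 log2 fold changes in 6WP against WT were positive under all 14 alternatives. ATF5 in 6WP against AM (0.02) became -0.01203 with DESeq2 size factors in edgeR and -0.01208 with the DESeq2 Wald test, and ranged from -0.20 to 0.18 without single libraries. ATF3 in AM against WT (-0.01) ranged from -0.28 to 0.35 without single libraries. The cause was not tested. Of 140 member values in each comparison, 110, 111 and 100 kept direction and side of the threshold. The counts of the 10 genes were at least 128 in every library. In 6WP against WT the median log2 fold change of the 10 genes was 1.21 without 6WP replicate 1 and 1.84 without 6WP replicate 2. These fits too leave 1 library in a compared group. Its spread is then taken from the other groups, whose libraries differed less from each other, so their calls are not read.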

Other observations

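The WT libraries differed in ATF3 together with other immediate early genes, which were named after their values were seen. FOS measured 171.5 and 339.5 CPM, JUN 65.7 and 122 CPM and JUNB 26.9 and 50.2 CPM in WT replicates 1 and 2, beside 41.6 and 64.0 CPM for ATF3. The 4 were higher in replicate 2, whereas ATF4 measured 425 and 422 CPM there. FOS fell from WT to AM cells by 2.14 on the log2 scale (edgeR's quasi-likelihood test, adjusted p = 0.0226) and JUN by 1.10 (adjusted p = 0.0264), while ATF3 was at -0.01. In 6WP against AM, by the same test, FOS was 1.32 higher (adjusted p = 0.0795), JUN 1.08 (adjusted p = 0.0236) and JUNB 0.82 (adjusted p = 0.121), beside 0.94 for ATF3. FOS measured 204 and 84.3 CPM, JUN 93.9 and 91.3 CPM and JUNB 48.1 and 28.9 CPM in 6WP replicates 1 and 2. The part of these differences in the ATF3 comparisons with WT and with AM was not tested.

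LAMP3, a lysosomal membrane protein on the list of further stress genes, also named after its values were seen, had 0.759 and 0.551 CPM in WT, 1.81 and 3.33 CPM in AM and 34.2 and 8.11 CPM in 6WP cells. GDF15, a stress cytokine, measured 15.3 and 19.0 CPM in WT and 90.5 and 35.4 CPM in 6WP cells. Both rose in 6WP against WT (adjusted p = 0.0193 and 0.043), and in both the first 6WP library was more than 2 times the second, as in TRIB3. Of the 10 genes on that list 7 were higher in 6WP replicate 1, with a median difference of 0.36 log2 units. Of the 8 amino acid transporters 3 were higher in that replicate, with a median of -0.17.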
